A study of Mus musculus with 6 samples.

Results

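Metallothioneins and the genes of zinc transport were examined in WATs of mice that lack Ntsr2 in adipocytes. The 8 genes described here are the metallothioneins Mt1 and Mt2, the zinc-sensing transcription factor gene Mtf1, the exporter genes Slc30a1 and Slc30a2, and the importer genes Slc39a8, Slc39a10 and Slc39a14. They were picked by name, with the values of the same comparison already known, so their differences between genotypes are given as a description and without a test. All 8 were found among the 21456 genes of the deposited table.

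WATs came from 3 control mice, which carry Ntsr2 flox/flox without Cre, and from 3 Ntsr2 AKO mice, which carry Ntsr2 flox/flox together with Adipoq-cre. All 6 mice were fed a chow diet. Adipoq drives Cre in adipocytes, so other cells of the tissue keep Ntsr2, and the sources used here do not name the fat depot, age or sex for this experiment. The labels give each mouse as a separate sample, numbered 3, 4 and 5 in each genotype.

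Zinc is an essential but reactive metal, and cells hold free zinc low. Metallothioneins are short cysteine-rich proteins that bind zinc and copper and release them on oxidation. When zinc rises, the transcription factor MTF1 binds metal response elements in DNA and switches on metallothionein genes and the exporter ZnT1. Glucocorticoids and inflammatory cytokines also induce metallothioneins. Proteins of the SLC30 (ZnT) family move zinc out of the cytosol, to the outside or into organelles and vesicles, and those of the SLC39 (ZIP) family move it into the cytosol. White fat is a known site of metallothionein expression.

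Mt1 (ENSMUSG00000031765) and Mt2 (ENSMUSG00000031762) lie side by side on the plus strand of chromosome 8. In GENCODE M21 on GRCm38, the assembly that the labels name as mm10, Mt2 spans 94172664 to 94173568 and Mt1 spans 94179082 to 94180327, with 5513 bases between them. Mt3, at 94152607 to 94154146, lies upstream on the same strand. The letters before the annotated starts of Mt1 and Mt2 are shown because MTF1 acts through such sequence and both genes had the most negative differences of the set. The sequences are RefSeq promoter entries on GRCm38.p6, printed 5′ to 3′ on the plus strand. Capitals mark matches to the core of the metal response element, TGCACNC or TGCGCNC, on either strand.
Mt2 upstream, chr8:94172368-94172617: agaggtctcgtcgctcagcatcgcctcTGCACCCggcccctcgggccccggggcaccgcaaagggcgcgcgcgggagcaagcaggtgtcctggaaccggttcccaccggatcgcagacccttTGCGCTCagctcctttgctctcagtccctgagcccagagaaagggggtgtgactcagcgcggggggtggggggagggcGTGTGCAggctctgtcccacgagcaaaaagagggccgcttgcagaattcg
Mt1 upstream, chr8:94178839-94179081: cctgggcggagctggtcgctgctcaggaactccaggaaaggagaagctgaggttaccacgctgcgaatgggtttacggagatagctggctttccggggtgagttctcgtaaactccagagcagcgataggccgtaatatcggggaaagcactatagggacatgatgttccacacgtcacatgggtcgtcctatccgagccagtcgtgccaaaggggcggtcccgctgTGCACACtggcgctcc
Mt1 around the start, chr8:94179088-94179117: ctcTGCACTCcgcccgaaaagTGCGCTCgg

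In the 250 bases before its RefSeq start Mt2 held 3 matches and Mt1 held 1. Of 32817 RefSeq promoters of that length, 21.4% held at least 1 match and 1.26% held at least 3. With the 50 bases after the RefSeq start included, a window added after the 250-base counts were seen, Mt2 had 4 matches and Mt1 had 3. Those counts were reached by 0.518% and 1.97% of all promoters. In this wider window Slc30a1 and Slc30a2 had 2 matches each, a count reached by 7.12% of all promoters. Other annotated transcripts start further downstream, such as those of Mt1 at 94179211 and 94179241 and 1 of Mt2 at 94172860. These windows therefore need not be the whole promoter of either gene. The stretch printed around the RefSeq start of Mt1 lies upstream of these later Mt1 starts. Bases between the end of the wider window and these starts were not searched. Among the other genes Slc30a2 had 2 matches in the 250 bases, Slc30a1 had 1, and 1 of the 2 Slc39a8 starts had 1. Mtf1 and both Slc39a10 starts had 0, and Slc39a14 had no entry. A match is a run of letters and not a shown binding site.

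**Figure D1:**
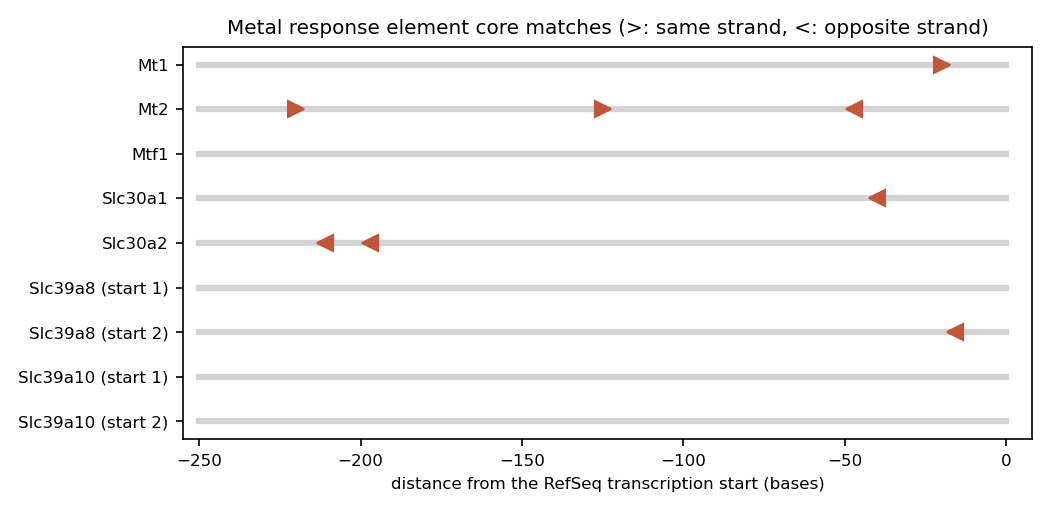
Positions of matches to the metal response element core (TGCACNC or TGCGCNC) in the 250 bases before each RefSeq start of 7 genes (grey bars), in bases from the start on the horizontal axis. Arrowheads give the strand of each match, and Mt2 holds 3 of the 8 matches shown.

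The libraries were checked before the genes were compared. A normalized count is a read count scaled by the size factor of its library. Ntsr2, the targeted gene, had 83.8, 64.0 and 152.5 of these in control and 3.10, 8.29 and 0 in Ntsr2 AKO mice, where the 0 allows up to 3.04. Its log2 difference was -4.81 (standard error 0.91), with an adjusted p of 0.499 in limma and 1.2e-04 in DESeq2. Recovered reads ranged from 60405373 to 66098226 in control and from 54085088 to 56268725 in Ntsr2 AKO mice, so every control library was deeper. The 8 adipocyte markers, among them Adipoq and Plin1, summed to 1673206 to 2239338 in control and 1655341 to 2037128 in Ntsr2 AKO mice. Skeletal muscle markers stood apart in 3 libraries: the 7 genes summed to 2433545 in control 5, 74504 in Ntsr2 AKO 4 and 166096 in Ntsr2 AKO 5, and to 391 to 1448 in the other 3 mice.

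Of the 8 genes Mt1 and Mt2 had the most negative differences between genotypes. Mt1 had 37027, 39825 and 72584 normalized counts in control and 16240, 10992 and 9141 in Ntsr2 AKO mice. The ranges were apart, with all Ntsr2 AKO mice lower, and the Ntsr2 AKO mean was 24.3% of the control mean (12124 ± 3682 against 49812 ± 19771, SD, n = 3 in each). On the log2(normalized count + 1) scale the difference was -2.01 (standard error 0.32, limma fit over all genes).

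For Mt2 the values were 38574, 39805 and 86277 in control and 15831, 4952 and 4419 in Ntsr2 AKO mice. The groups again did not overlap, and the mean of 8401 ± 6440 in Ntsr2 AKO was 15.3% of the control mean of 54885 ± 27193 (SD, n = 3 in each). The log2 difference was -2.86 (standard error 0.55). Ranked by this difference from the most negative, Mt2 had rank 39 and Mt1 rank 150 of the 16157 genes tested. Among the 1940 genes whose mean reached 5000 normalized counts, Mt2 had rank 2 and Mt1 rank 5. The genes were picked with these differences known, so the ranks are only a description.

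The metallothioneins are abundant transcripts in this tissue. Together they made up 0.128% to 0.251% of all normalized counts in control mice and 0.0238% to 0.0568% in Ntsr2 AKO mice. By normalized count Mt1 ranked between 92 and 154 among all genes in control mice, and between 450 and 886 in Ntsr2 AKO mice. Mt2 ranked between 73 and 155, and between 466 and 2056. Per kilobase of the transcript that spans the whole gene (549 spliced bases for Mt1, 511 for Mt2), the control means were 90733 for Mt1 and 107408 for Mt2, and the Ntsr2 AKO means were 22084 and 16440. Per kilobase of all annotated exon they were 39978 and 93342 in control, and 9731 and 14287 in Ntsr2 AKO mice. Which gene was higher in Ntsr2 AKO mice thus depended on the length used.

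Mt1 and Mt2 did not stand in one ratio in all mice. Mt2 divided by Mt1 was 1.04, 0.999 and 1.19 in control mice and 0.975 in Ntsr2 AKO 3, but 0.451 and 0.483 in Ntsr2 AKO 4 and 5. In the latter pair Mt2 was lower relative to Mt1 than in the other 4 mice, and both belong to the libraries with muscle transcripts. Control 5, with the most muscle transcripts, had the highest ratio, 1.19. Gene length cancels in this comparison between mice. No run of 50 bases in an annotated Mt1 or Mt2 transcript occurs in an annotated transcript of another gene. Gm45774 is annotated antisense to 432 exonic bases of Mt2, and the counting is not stated to use strand.

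**Figure D2:**
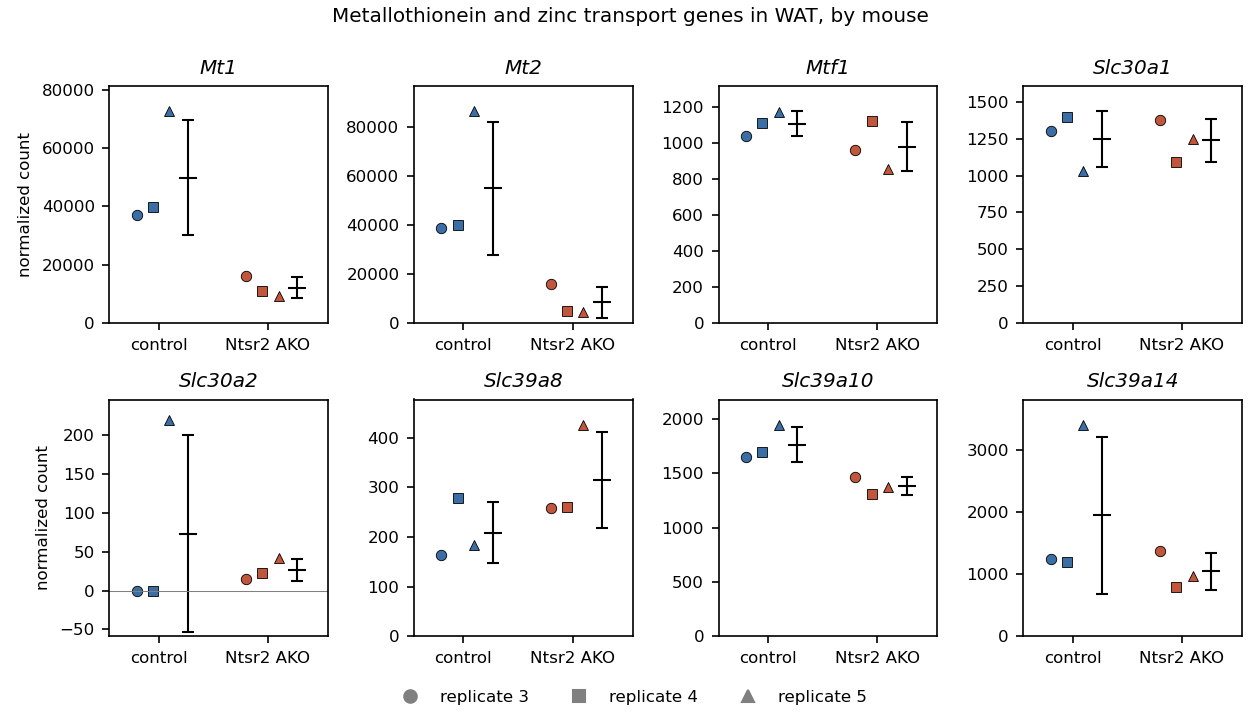
Normalized counts of the 8 genes in each mouse (vertical axes, linear), with control in blue and Ntsr2 AKO in red, marker shape giving the replicate number and black bars the group mean ± SD (n = 3). Mt1, Mt2 and Slc39a10 are lower in all 3 Ntsr2 AKO mice, control 5 is the highest mouse for Mt1, Mt2, Mtf1, Slc30a2, Slc39a10 and Slc39a14, and the SD bar of Slc30a2 reaches below 0.

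Control 5 was the highest mouse for both metallothioneins and also held the most muscle transcripts. Among the 3 mice low in muscle transcripts, Ntsr2 AKO 3 was the only one of its genotype. Mt1 was 37027 and 39825 in control 3 and 4 against 16240 in Ntsr2 AKO 3, and Mt2 was 38574 and 39805 against 15831. In these 3 mice the log2 difference was -1.24 for Mt1 and -1.31 for Mt2, smaller than over all 6. This leaves out control 5, the highest mouse for both genes, and Ntsr2 AKO 4 and 5, the lowest. Without control 5 alone the differences were -1.71 and -2.48, and with the muscle level as a covariate they were -2.06 and -2.88. The part of muscle in the metallothionein values was not tested.

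**Figure D3:**
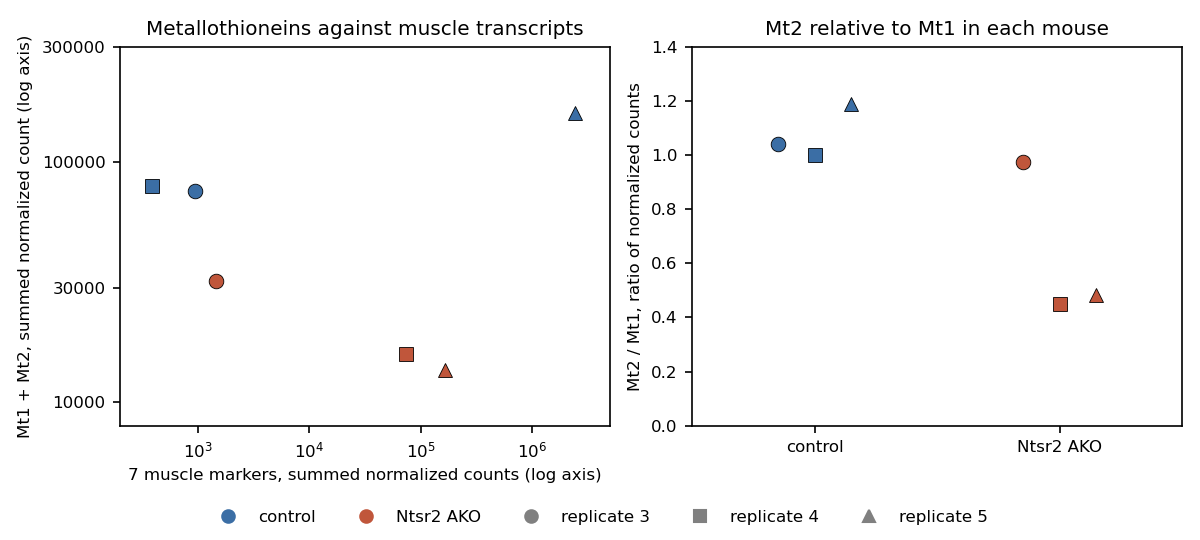
Left, the summed normalized count of Mt1 and Mt2 against the summed normalized counts of 7 skeletal muscle markers in each mouse (log axes). Right, Mt2 divided by Mt1 in each mouse (linear axis from 0), which is 0.451 and 0.483 in Ntsr2 AKO 4 and 5 and 0.975 to 1.19 in the other mice. Control is blue, Ntsr2 AKO is red, and marker shape gives the replicate number.

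Among the markers of other cells, the summed level of 5 macrophage markers in the table was 12359 to 25472 in control and 14084 to 21065 in Ntsr2 AKO mice, and that of 3 endothelial markers 12919 to 20812 and 12282 to 18239, with overlap in both. The sums of lymphocyte, mesothelial and progenitor markers also overlapped. Epithelial markers (4 genes) summed to 41.2 to 235 in control and 34.2 to 39.5 in Ntsr2 AKO mice, and Epcam was at 0 in all 3 mice of the latter. The 235 came from control 3 alone, and control 4 and 5 had epithelial sums of 45.4 and 41.2. The 3 brown adipocyte markers summed to 2134 to 4223 in control and 4542 to 6470 in Ntsr2 AKO mice, mostly from Cidea. Their part in the metallothionein values was not tested. In bulk tissue, fewer cells of a type and less RNA in each cell cannot be told apart.

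Mt3, the metallothionein best known from brain, was scarce, with 18.4, 33.0 and 24.0 normalized counts in control and 24.8, 17.6 and 19.2 in Ntsr2 AKO mice. Its log2 difference was -0.25 (standard error 0.48, limma adjusted p = 0.901) and the groups overlapped.

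Mtf1 (ENSMUSG00000028890, chromosome 4, 124802104 to 124849800) had 1041, 1114 and 1176 normalized counts in control and 964, 1125 and 857 in Ntsr2 AKO mice. The ranges overlapped, with a log2 difference of -0.18 (standard error 0.15), and Ntsr2 AKO 4 was above 2 of the control mice. Its exons share 721 bases with 1110065P20Rik on the opposite strand, which cannot be told apart without strand.

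Slc30a1 (ENSMUSG00000037434, chromosome 1, 191906767 to 191913247) encodes ZnT1, the zinc exporter of the plasma membrane and a known MTF1 target. It had 1303, 1401 and 1034 normalized counts in control and 1377, 1090 and 1249 in Ntsr2 AKO mice. The means of 1246 ± 190 and 1239 ± 144 (SD, n = 3 in each) were almost equal, with a log2 difference of -0.00331 (standard error 0.17). The Ntsr2 AKO mice lay within the range of the control mice.

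Slc30a2 (ENSMUSG00000028836, chromosome 4, 134343181 to 134354484) encodes ZnT2, which loads zinc into vesicles. It was at 0 in control 3 and 4, where a count of 0 allows up to 2.76 and 3.09 normalized counts (counting error only), and at 219.7 in control 5. The Ntsr2 AKO mice had 14.5, 22.8 and 41.5. The mean was lower in Ntsr2 AKO mice (26.2 ± 13.8 against 73.2 ± 127, SD), with the control mean coming from control 5 alone. The sign of its log2 difference depended on the tool. On the log2 scale limma gave 2.05 (standard error 2.09), and 0.75 to 4.64 when any mouse was left out, with 4.64 without control 5. On recovered reads DESeq2 gave -1.47 and edgeR -1.45. The value was highest in control 5, the library with the most muscle transcripts, and among the Ntsr2 AKO mice it followed the order of the muscle sums. The part of muscle in it was not tested.

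The importers did not move as one. Slc39a10 (ENSMUSG00000025986, chromosome 1, 46807544 to 46892852) encodes ZIP10, an importer of the plasma membrane that MTF1 is known to repress. Its normalized counts were 1647, 1697 and 1943 in control and 1465, 1307 and 1370 in Ntsr2 AKO mice. Again no Ntsr2 AKO mouse reached the lowest control, and the Ntsr2 AKO mean was 78.3% of the control mean (1381 ± 79.3 against 1762 ± 158, SD, n = 3 in each), a log2 difference of -0.35 (standard error 0.12). In the 3 mice low in muscle transcripts the log2 difference was -0.19.

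Slc39a14 (ENSMUSG00000022094, chromosome 14, 70303469 to 70351425) encodes ZIP14, which carries zinc, iron and manganese and is induced by IL-6 in liver. It had 1242, 1202 and 3407 normalized counts in control and 1378, 799 and 968 in Ntsr2 AKO mice. The groups overlapped, and the log2 difference of -0.75 (standard error 0.43) rested on control 5. Without that mouse it was -0.26, and in the 3 mice low in muscle transcripts it was 0.17.

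Slc39a8 (ENSMUSG00000053897, chromosome 3, 135825279 to 135888572) encodes ZIP8, the closest relative of ZIP14. With 164, 279 and 184 normalized counts in control and 258, 261 and 426 in Ntsr2 AKO mice, its mean was higher in Ntsr2 AKO mice (315 ± 96.1 against 209 ± 61.2, SD, n = 3 in each). The groups overlapped, and the log2 difference was 0.59 (standard error 0.31). Over all 6 mice Slc39a8 and Slc39a14 had mean differences of opposite sign.

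Counted as a set, 6 of the 8 genes had a negative log2 difference and 2 a positive one, with a median of -0.27, against -0.01 and 51.0% negative over all 16157 genes tested. The number of negative differences was 5 with quantile normalization, TMM scaling or the muscle covariate and without control 3, control 4 or Ntsr2 AKO 4, 7 in DESeq2, and 4 in the 3 mice low in muscle transcripts. The 6 include Slc30a1, whose difference of -0.00331 (standard error 0.17) turned positive in each setting with 5 negative ones. The groups did not overlap for Mt1, Mt2 and Slc39a10, all lower, where 8.16% of all genes tested were lower without overlap, and for 0 of the 8 with Ntsr2 AKO higher, where the share of all genes was 6.82%. In limma 0 of the 8 passed an adjusted p of 0.05, as did 0.00619% of all genes, and in edgeR 0 of 8, as did 0% of all genes (8.35% and 8.19% of all genes had an unadjusted p under 0.05). In DESeq2 Mt1 and Mt2 passed, as did 1.38% of the 15877 genes given an adjusted p (0.964% lower and 0.416% higher), and Slc30a2 was given none. The genes were chosen on this comparison, so these counts are no support for it.

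The other zinc genes were listed by family. Of 21 further metallothionein, Slc30 and Slc39 genes, 17 were in the table and 15 reached a mean of 10 normalized counts and were tested. None passed the adjusted threshold in limma, edgeR or DESeq2 (0 in each), where 0.00619%, 0% and 1.38% of all genes passed. An unadjusted p under 0.05 was found for 1 in each tool, and for 8.35%, 8.19% and 10.6% of all genes. Of the log2 differences of these 15 genes 10 were negative and 5 positive, with a median of -0.07, where 51.0% of all genes were negative. After quantile normalization 6 of the 15 were lower, so that split depended on the scaling.

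The ZnT exporters apart from Slc30a2 lay close to 0. The 5 tested beside the described genes, Slc30a4, Slc30a5, Slc30a6, Slc30a7 and Slc30a9, had log2 differences from -0.10 to 0.08, with limma adjusted p values from 0.869 to 0.894. Slc30a5 had 2888, 2803 and 2791 normalized counts in control and 2628, 2802 and 2702 in Ntsr2 AKO mice. It encodes ZnT5, which brings zinc into the early secretory pathway, and its log2 difference was -0.06 (standard error 0.10).

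Among the ZIP importers Slc39a1 and Slc39a6 had groups that did not overlap. They were 2 of the 9 ZIP genes tested beside the described ones, and 8.16% of all genes tested were lower without overlap. Slc39a1, which encodes the plasma membrane importer ZIP1, had 6350, 6546 and 7213 normalized counts in control and 5904, 4586 and 5354 in Ntsr2 AKO mice. Its log2 difference was -0.35 (standard error 0.13, limma unadjusted p = 0.0329, adjusted p = 0.565). Slc39a6, which encodes ZIP6, the partner of ZIP10, had 947, 1045 and 1200 in control and 851, 779 and 908 in Ntsr2 AKO mice. Its log2 difference was -0.33 (standard error 0.15, adjusted p = 0.604). Both differences were close to that of Slc39a10 in size, and neither passed the adjusted threshold in any of the 3 tools. Slc39a12, named after its values were seen, had a larger log2 difference of -2.11 (standard error 1.17, adjusted p = 0.653) from few reads, with 4.60, 23.7 and 26.9 normalized counts in control and 4.13, 8.29 and 0 in Ntsr2 AKO mice, which overlapped.

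By control mean per kilobase of annotated exon, the zinc genes outside the metallothioneins with the highest levels were not among the 8. Slc39a1 had 2835 normalized counts per kilobase, Slc39a7 1345 and Slc39a3 434. Slc39a10 had 289, Slc30a1 238, Slc39a14 185, Mtf1 125, Slc39a8 27.3 and Slc30a2 20.5. Slc39a7, which encodes the ER and Golgi transporter ZIP7, had a log2 difference of -0.15 (standard error 0.13, limma adjusted p = 0.776). Slc39a3, which encodes ZIP3, had -0.07 (standard error 0.15, adjusted p = 0.919).

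**Figure D4:**
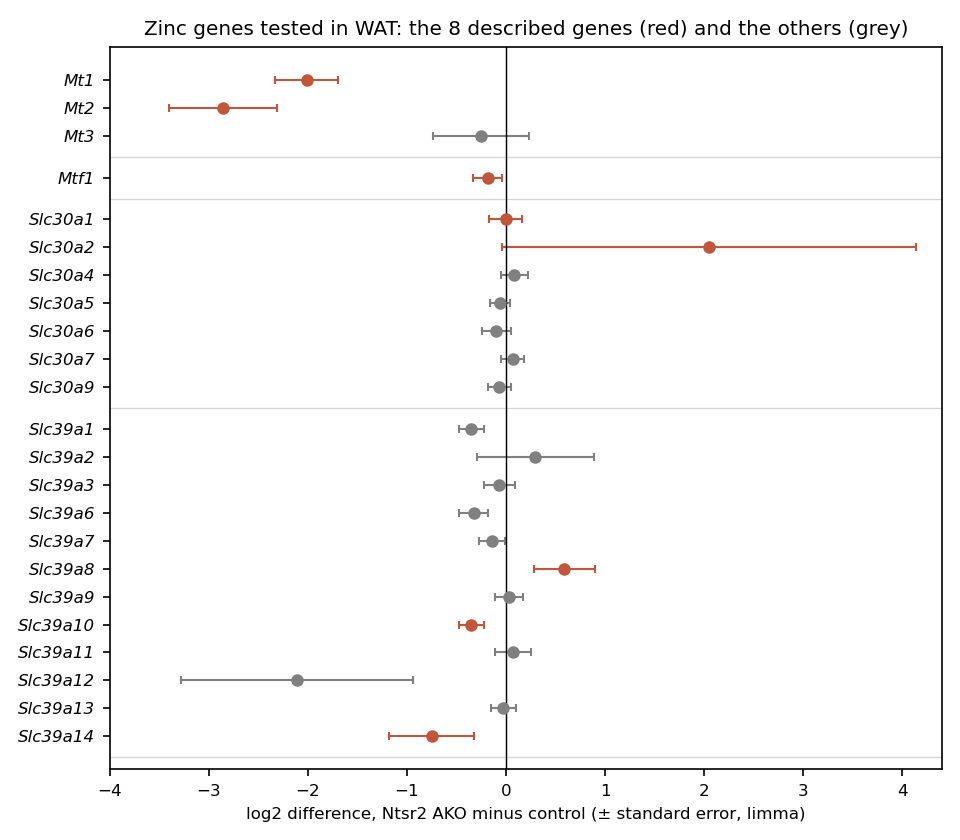
Difference between genotypes for the 23 zinc genes tested, as Ntsr2 AKO minus control on the log2(normalized count + 1) scale (horizontal axis), with bars for the limma standard error (n = 3 mice in each group). The 8 described genes are red and the other 15 grey, Mt2 (-2.86), Slc39a12 (-2.11) and Mt1 (-2.01) lie farthest to the left, and Slc39a12 and Slc30a2 have the widest bars.

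Across the 6 mice Mt1 and Mt2 followed each other closely (Pearson r = 0.986 on the log2 scale). Slc39a10 followed both (r = 0.980 with Mt1 and 0.971 with Mt2), Slc39a14 less so (0.801 and 0.804), and Slc39a8 ran the other way (-0.742 and -0.746). Slc30a1 followed neither (-0.128 and -0.00800). Each r rests on 6 libraries that share the genotype difference and is a description. Of all genes tested, the pattern of Mt1 was matched most closely by Armc6 (r = 0.9995), Nop58 (0.997) and Sdad1 (0.996). That of Mt2 was matched by Rrp9 (0.999), Heatr1 (0.997) and Rnf10 (0.995), and that of Slc39a10 by Serpina3f (0.997), Ednrb (0.994) and Runx1 (0.993). For Slc39a14 the closest were Map2k4 (0.999), Gtdc1 (0.996) and Chac1 (0.995). For Mtf1 they were Eif3f (0.994), Gstp1 (0.990) and Hspbap1 (0.984), for Slc30a1 Dennd1c (0.998), Paqr6 (0.993) and Fgfr3 (0.992), for Slc30a2 Lsmem1, Spata17 and Kcnj12 (0.989 each), and for Slc39a8 Fen1 (0.994), Lyl1 (0.989) and Gm26637 (0.988). Every one of the 8 genes had 3 such close matches among 16157 genes, those that overlapped between genotypes included.

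Genes that respond to signals known to act on metallothioneins were set beside them in 3 lists. Over all genes tested 51.0% had negative log2 differences and 8.16% were lower without overlap. All 12 glucocorticoid-induced genes had negative log2 differences, with a median of -0.50, and 2 had groups without overlap. Of 11 acute-phase and IL-6 response genes tested 10 were negative, with a median of -1.02, and 5 had no overlap. All 6 NRF2 antioxidant genes were negative, with a median of -0.40, and 2 had no overlap. In limma 0 genes of each list passed the adjusted threshold, as did only 0.00619% of all genes tested. In the 3 mice low in muscle transcripts the medians were -0.20, -0.36 and -0.16, with 9 of 12, 9 of 11 and 5 of 6 genes negative in the same order of lists. Without Ntsr2 AKO 5 the glucocorticoid list had a median of -0.32 with 9 of 12 negative, and without Ntsr2 AKO 4 the acute-phase list had -0.62 with 9 of 11 negative. The lists were written with earlier results of these data known, and whether any of these signals moved the metallothioneins was not tested.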

How the data were processed

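RNA from WATs of 3 control and 3 Ntsr2 AKO mice was sequenced, with 1 library for each mouse. For trimming the authors used Trimmomatic, for alignment HISAT2 and for read counts StringTie. The submitters' processing notes name mm10. Versions and annotation are not given in the sources used here. The deposited signal values are normalized counts, and division by the smallest value of each column gave whole reads for 100% of values (tolerance 1e-06). In R 4.3.3, log2(normalized count + 1) was fitted with limma 3.58.1 (mean-variance trend, no covariate, Benjamini-Hochberg adjustment) over 16157 genes with a mean of at least 10. edgeR 4.0.16 (quasi-likelihood) and DESeq2 1.42.0 were run on recovered reads. The procedures were tested on simulated counts. No 2 libraries agreed within sampling noise. The p values measure only the spread between these 6 samples.

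The members and all lists were chosen with earlier results of these data known. Named genes are the 8 members, Ntsr2, other zinc genes whose groups did not overlap or with the 3 highest levels per kilobase, and the 3 genes most correlated with a member. Mt3, Slc30a5, Slc39a12 and the members of the ZnT group were named outside this rule, after their values were seen. Cell type markers and 21 further zinc genes were listed by name. Mt4, Slc30a3, Slc30a8 and Slc39a5 were not analysed here. Gene positions are from GENCODE M21 (19770 of 21456 names matched), and promoters from RefSeq. Alternatives were other pseudocounts, filters and scalings, a fit without trend, the replicate number as a block, and each mouse left out. The 3 mice low in muscle transcripts (marker sum under 10000) and a muscle covariate were added after seeing the data. No mouse was imputed.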

Additional observations from a re-analysis of the deposited data

How the results depend on the processing

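Over the alternatives, 137 of 143 values of the log2 differences of the 8 genes stayed within 1 SD of the reported value. The filters, the fit without the trend and the replicate block cannot move a log2 difference, so they add to this count without testing it. For Slc30a2 the SD is so wide that values from 0.75 to 4.64 also lay within it. In the 3 mice low in muscle transcripts, a choice made after seeing the data, Mt1 had -1.24, Mt2 -1.31, Slc39a10 -0.19 and Slc39a14 0.17. Slc30a2 had -1.47 in DESeq2 and -1.45 in edgeR. When each mouse was left out in turn, Mt1 ranged from -2.24 to -1.71, Mt2 from -3.45 to -2.48, Slc39a10 from -0.40 to -0.28, Slc39a14 from -1.01 to -0.26, Slc39a8 from 0.35 to 0.81, Mtf1 from -0.29 to -0.09, Slc30a1 from -0.13 to 0.09 and Slc30a2 from 0.75 to 4.64. Genes with an adjusted p under 0.05 numbered 1 in limma, 219 in DESeq2, and 0 in edgeR, without the trend, without the filter, with the muscle covariate, in the 3 mice low in muscle transcripts, with the replicate block, and on leaving out any mouse (range 0 to 0). The cause was not tested. Ntsr2 had -4.72 in DESeq2 (adjusted p = 1.2e-04, the lowest of its alternatives, whose highest was 0.974).

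Same-numbered mice had deviations from their group means that correlated at 0.445, -0.242 and 0.407, so a pairing by number is uncertain. Control 4 and Ntsr2 AKO 4 each correlated best with a mouse of another number. Counting error adds to the spread between mice for genes with few reads, such as Slc30a2, Slc39a12, Mt3 and Ntsr2.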
